A study of Homo sapiens with 8 samples.

Results

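The messenger RNAs of 10 AU-rich element binding proteins were followed through all 8 RNA-seq libraries of the study: ZFP36, ZFP36L1, ZFP36L2, KHSRP, HNRNPD, ELAVL1, HNRNPA0, TIA1, TIAL1 and PABPC1. They were chosen by gene name, as regulators of mRNA stability of which several are substrates of the kinase MK2, and all 10 were found among the 58735 genes of the deposited table. All 10 passed the filter for testing, which kept 16239 genes. The cells were HCT116, an established human colorectal carcinoma line. In every library the cells expressed an shRNA (a short hairpin RNA that silences a transcript). One pair of groups carried a control shRNA and was kept for 24 h in medium with 20 mM glucose or with 0 mM glucose. The other pair of groups was kept at 20 mM glucose and carried an shRNA against MAPKAPK2, which encodes MK2, named shRNA 1 in one group and shRNA 2 in the other, with no time given in the labels. Each of the 4 groups has 2 libraries, and no group combines an shRNA against MAPKAPK2 with 0 mM glucose. Nothing in the labels says that the 2 libraries of a group came from separate cultures, so each p-value measures the spread between these libraries, which may be technical.

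AU-rich elements are stretches of A and U, often with repeated AUUUA pentamers, in the 3′ untranslated region (UTR) of many short-lived mRNAs such as those of cytokines and early response genes. Proteins that bind them set how long the mRNA lasts: ZFP36 (tristetraprolin) and its relatives ZFP36L1 and ZFP36L2, KHSRP and the HNRNPD (AUF1) isoforms recruit decay enzymes, whereas ELAVL1 (HuR) stabilises its targets, and TIA1 and TIAL1 (TIAR) repress translation and form stress granules. MK2, a kinase activated by p38, phosphorylates ZFP36, which is then held by 14-3-3 proteins and recruits deadenylases less well, and it also phosphorylates HNRNPA0 and PABPC1, the main cytoplasmic poly(A)-binding protein. That control acts on the proteins, whereas the values here are mRNA levels.

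Depth ran from 14252316 to 19975449 gene reads per library, and 13821 to 14611 genes reached 1 FPKM, a read level scaled to a gene's exon length and to the library's depth. MAPKAPK2 stood at 16.4 and 16.2 FPKM in the 20 mM controls and at 17.9 and 18.9 FPKM in the 0 mM controls. It measured 2.77 and 2.54 FPKM with shRNA 1 (16.3% of the 20 mM control mean) and 0.982 and 0.800 FPKM with shRNA 2 (5.46%), so both shRNA labels matched the targeted transcript. Its level was lower with shRNA 2 than with shRNA 1 by a log2 difference of -0.95 (adjusted p = 0.00124, limma). The epithelial markers EPCAM (68.2 to 138.6 FPKM), KRT8, KRT18, KRT19, CDH1 and CLDN7 were present in all libraries and VIL1 was near 0 (at most 0.0614 FPKM). Leukocyte, endothelial and hepatocyte markers were under 1 FPKM in every library, and of the fibroblast markers COL1A1 reached 3.84 to 6.72 FPKM while DCN was at 0 reads. In RNA from bulk cells, fewer cells of a type and less RNA per cell cannot be told apart.

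The sequences below are shown because the ZFP36 family's optimal site, the nonamer TTATTTATT, occurs in the mRNAs of all 3 family members. Sites were read on the transcript strand of 1 principal transcript per gene in GENCODE 29 (GRCh38), with the nonamer in capitals and 6 flanking bases on each side.
ZFP36: acgactTTATTTATTctaata
ZFP36L1: gttggaTTATTTATTttagaa
ZFP36L2: tttaacTTATTTATTatcttg
ELAVL1: atgtatTTATTTATTgaagtg
The ZFP36 site lies in the 3′ UTR at chr19:39409200-39409220 on the plus strand. On the minus strand of their chromosomes lie the sites of ZFP36L1 at chr14:68788081-68788101, of ZFP36L2 at chr2:43223452-43223472 and of ELAVL1 at chr19:7961832-7961852, also in 3′ UTRs. TIA1 and TIAL1 lacked the nonamer and held 1 copy each of the heptamer TATTTAT, shown in capitals with the same flanks.
TIA1: acaatgTATTTATttaaaa
TIAL1: tgaaaaTATTTATtttaaa
These lie at chr2:70212595-70212613 and chr10:119575560-119575578, both on the minus strand and in the 3′ UTR. A match is a description of the sequence and not evidence of binding.

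The nonamer was present in 4 of the 10 members' 3′ UTRs, against 7.52% of 18918 genes with an annotated 3′ UTR. Long 3′ UTRs hold more motifs, and among genes whose 3′ UTR was within 1.5 times the member's length, the nonamer occurred in 4.05% for ZFP36, 9.57% for ZFP36L1, 9.85% for ZFP36L2 and 19.7% for ELAVL1. The heptamer TATTTAT, which the nonamer contains, occurred in 6 of 10 members and 28.8% of all genes, and the pentamer ATTTA, contained in both, in 9 of 10 members and 64.5% of all genes. A run of 5 T (TTTTT), the kind of U-rich stretch that TIA1 binds, occurred in 9 of 10 members and 72.5% of all genes, with PABPC1 as the exception. The members differed among themselves: HNRNPA0 had 22 pentamers in a 3′ UTR of 7498 bases but no heptamer, ZFP36 had 5 pentamers in only 713 bases, and KHSRP had none in 764 bases. Between these extremes stood ELAVL1 and TIA1 with 13 pentamers each, ZFP36L1 with 8, ZFP36L2 with 5, HNRNPD and PABPC1 with 2 each and TIAL1 with 1.

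**Figure D1:**
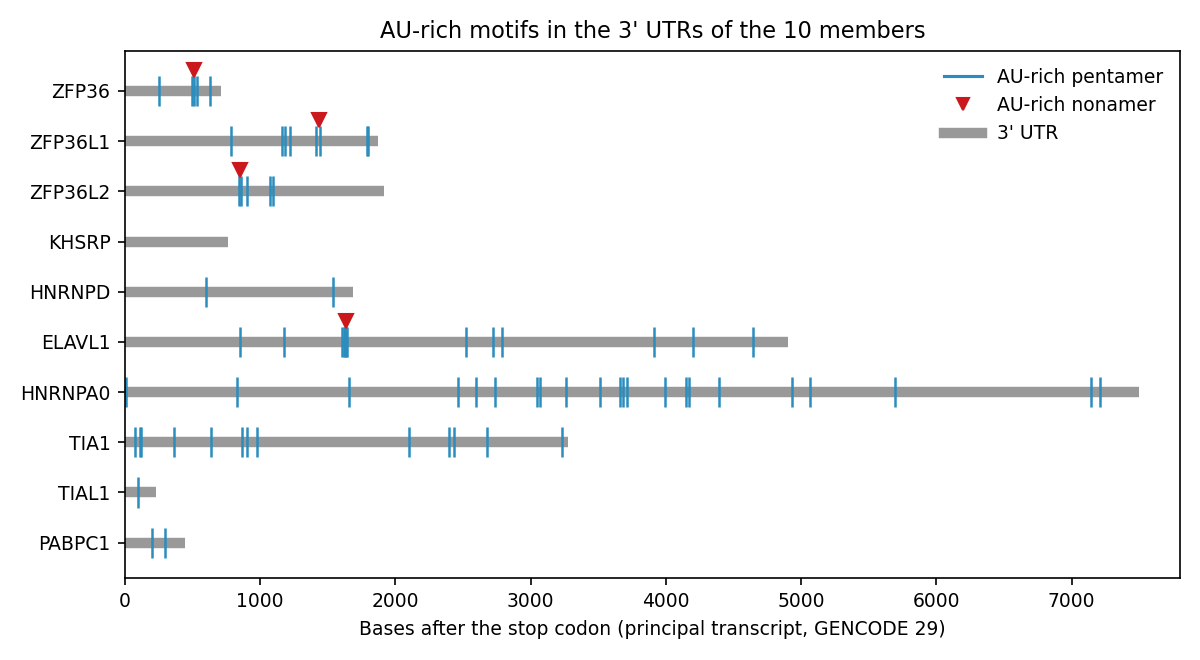
Map of the 3′ UTRs of the 10 members to scale, with the distance from the stop codon in bases on the horizontal axis and 1 line per member, with bars at each pentamer and triangles at each nonamer. Only the lines of ZFP36, ZFP36L1, ZFP36L2 and ELAVL1 hold a nonamer, and that of KHSRP holds no pentamer.

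In the 20 mM control cells, PABPC1 was the most abundant member at 582 ± 16.3 FPKM (mean ± SD, n = 2, as for the other levels given this way), followed by KHSRP at 95.3 ± 8.50, ZFP36L1 at 75.7 ± 1.41 and HNRNPD at 54.4 ± 0.467 FPKM. ZFP36 (35.2 ± 0.285 FPKM) and HNRNPA0 (34.95 ± 2.73 FPKM) were not separated, since the ZFP36 libraries fell between those of HNRNPA0. ZFP36L2 (28.6 ± 2.63 FPKM) and TIAL1 (26.8 ± 0.661 FPKM) overlapped as well. ELAVL1 at 22.4 ± 0.120 FPKM and TIA1 at 11.9 ± 0.611 FPKM were the lowest. Levels between genes are compared on the FPKM scale, which is per exon length. Even the least covered member, ZFP36, had at least 776 reads in a library, and the 95% counting interval of a member's value reached at most 7.29% from it in any library, which covers counting error only. Across the 8 libraries ZFP36L2 varied most, with its highest value 2.43 times its lowest, and TIAL1 least, at 1.22 times. The level of PABPC1 is uncertain, because the annotation names 13 pseudogene copies whose reads the counting could have split. ELAVL1 shares 7.59% of its exon bases with an antisense gene, TIA1 shares 3.19% with C2orf42 on the same strand and HNRNPD shares 2.91% with an antisense gene, and the sources used here do not say whether counting used strand.

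**Figure D2:**
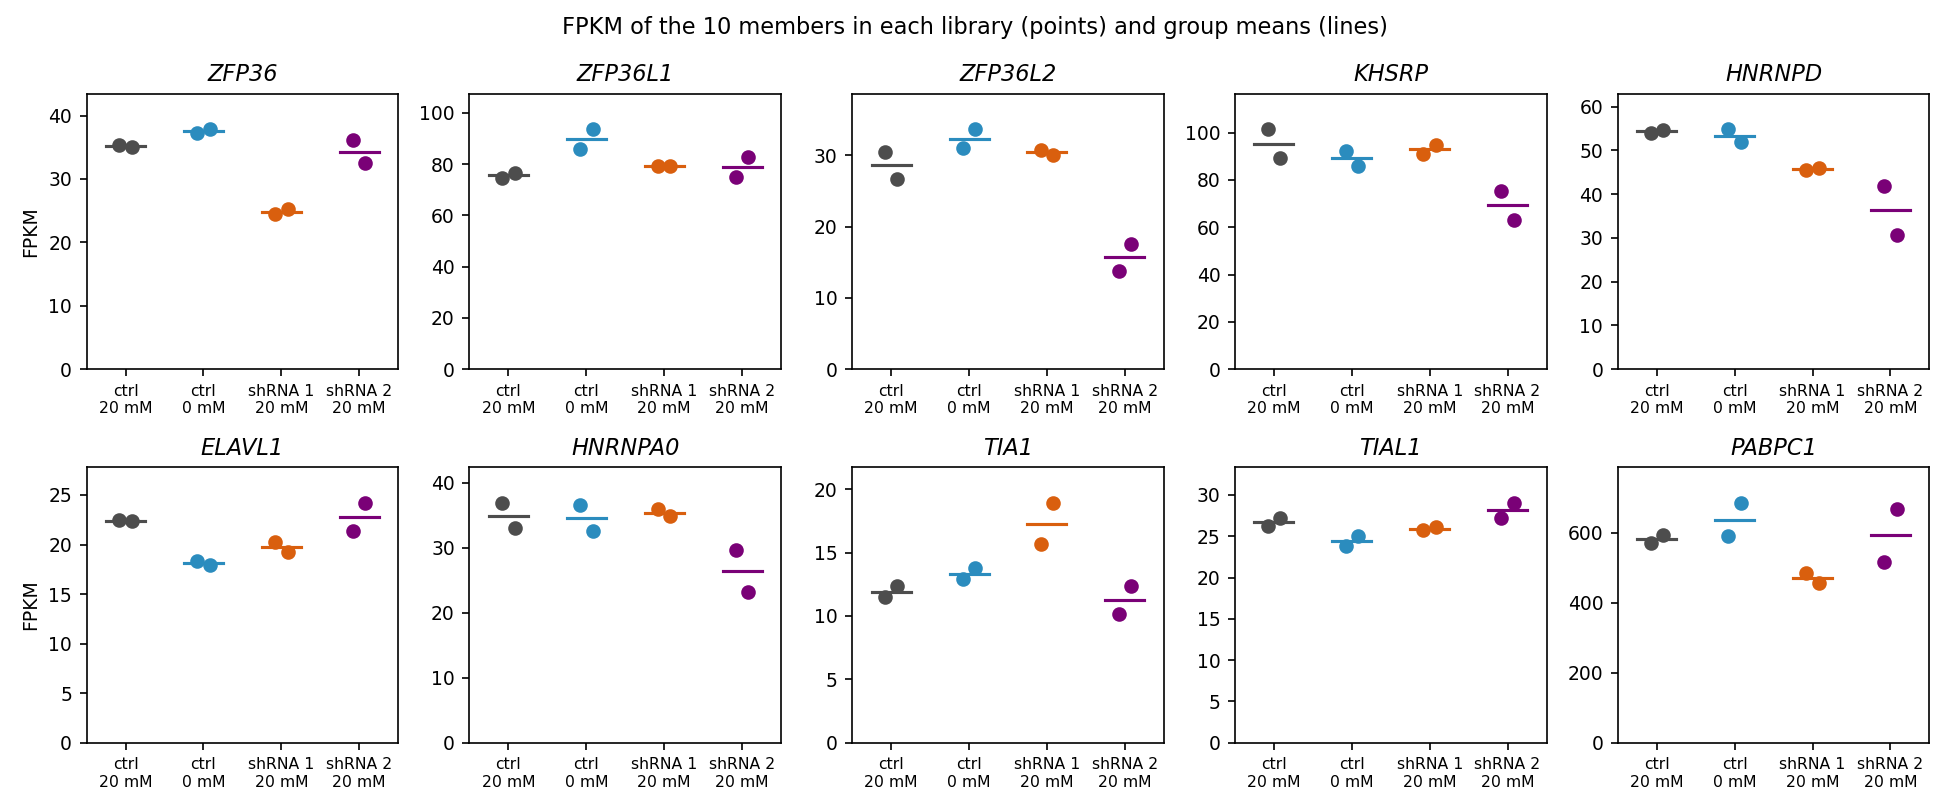
FPKM of each member (1 panel per gene, each axis from 0) in the 8 libraries by group, with points for libraries and a line for the mean of 2. The shRNA 1 libraries are lowest for ZFP36 and highest for TIA1, and the shRNA 2 libraries are lowest for ZFP36L2, KHSRP, HNRNPD and HNRNPA0.

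ZFP36, the founding member of the zinc finger family and a rapid destabiliser of cytokine mRNAs (chr19:39406813-39409412, plus strand), fell with shRNA 1 and not with shRNA 2. Its level was 35.4 and 35.02 FPKM in the 20 mM controls, 37.2 and 37.8 FPKM in the 0 mM controls, 24.5 and 25.2 FPKM with shRNA 1, and 36.1 and 32.5 FPKM with shRNA 2. Both shRNA 1 libraries were below all 6 others, whereas the shRNA 2 libraries lay on either side of the 20 mM controls. The shRNA 1 mean was 70.6% of control (log2 fold change -0.49, SE 0.09, adjusted p = 0.0108, limma on log2(FPKM + 1)). With shRNA 2 the change was -0.04 (95% interval -0.24 to 0.16), and the difference between the shRNAs, 0.45 (SE 0.09), passed the test itself (adjusted p = 0.0124, limma). The mean over both shRNAs did not pass (-0.26, adjusted p = 0.0514, limma). With 1 library fewer the shRNA 1 call was lost in 4 of 8 cases by limma, without the first or second 20 mM control (adjusted p = 0.0793 and 0.0725) and without the first or second shRNA 1 library (0.0769 and 0.0632), at log2 fold changes of -0.47 to -0.51. The difference between the shRNAs was lost without the first or second shRNA 1 library (adjusted p = 0.0836 and 0.0661, limma).

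ZFP36L1, the most abundant of the family (chr14:68787660-68796253, minus strand) and a regulator of differentiation and cell cycle mRNAs, passed in no comparison with a MAPKAPK2 shRNA. It measured 74.7 and 76.7 FPKM in the 20 mM controls, 86.0 and 93.5 FPKM without glucose, 79.4 and 79.2 FPKM with shRNA 1, and 74.9 and 82.8 FPKM with shRNA 2. Only the 0 mM libraries stood above all others. The rise without glucose to 118.6% of control (log2 fold change 0.24, SE 0.09, unadjusted p = 0.0345 in the limma fit) did not pass the adjustment over all genes (adjusted p = 0.536, limma). For shRNA 1 and shRNA 2 the 95% intervals of the log2 fold change were -0.15 to 0.28 and -0.16 to 0.275 (limma), and that of the difference between them was -0.23 to 0.21. Over the 14 alternatives the values ran from 0.05 to 0.23 with shRNA 1, from -0.05 to 0.13 with shRNA 2 and from -0.28 to 0.06 between the shRNAs.

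ZFP36L2, which acts in lymphoid and haematopoietic cells among others (chr2:43222402-43226609, minus strand), had the largest change of any member. Its level was 30.4 and 26.7 FPKM in the 20 mM controls, 30.97 and 33.6 FPKM without glucose, 30.8 and 30.04 FPKM with shRNA 1, and 13.8 and 17.6 FPKM with shRNA 2. Both shRNA 2 libraries were well below all 6 others, which overlapped or lay close together. With shRNA 2 it fell to 54.95% of control (log2 fold change -0.83, SE 0.13, adjusted p = 0.00675, limma), whereas with shRNA 1 the change was 0.09 (95% interval -0.22 to 0.40). The difference between the shRNAs, -0.92 (SE 0.13, adjusted p = 0.00437, limma), passed under all 14 alternative settings, and the mean over both shRNAs (-0.37, adjusted p = 0.0643, limma) did not pass. Without the first 20 mM control library the fall with shRNA 2 was -0.74 and missed the threshold (adjusted p = 0.0589, limma). It passed in the other 13 settings.

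The make-up of the family differed between groups accordingly. Of the 3 members' summed FPKM, ZFP36L1 gave 54.3% ± 1.60 (SD, n = 2, as for the shares that follow) in control cells at 20 mM glucose and 56.25% ± 0.637 at 0 mM. It gave 58.9% ± 0.0563 under shRNA 1 and 61.2% ± 1.61 under shRNA 2. ZFP36 gave 25.25% ± 0.0679, 23.5% ± 0.845, 18.5% ± 0.414 and 26.7% ± 3.17 in the same order, so its share was lowest with shRNA 1. ZFP36L2 gave 20.5% ± 1.67, 20.2% ± 0.207, 22.6% ± 0.357 and 12.2% ± 1.55, so its share was lowest with shRNA 2. The family's sum was 139.5 ± 1.51 FPKM for control cells at 20 mM, 159.5 ± 7.55 without glucose, 134.6 ± 0.134 under shRNA 1 and 128.8 ± 5.72 under shRNA 2. Each shRNA therefore went with a lower level of a different family member, while ZFP36L1 remained the largest share in every group.

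**Figure D3:**
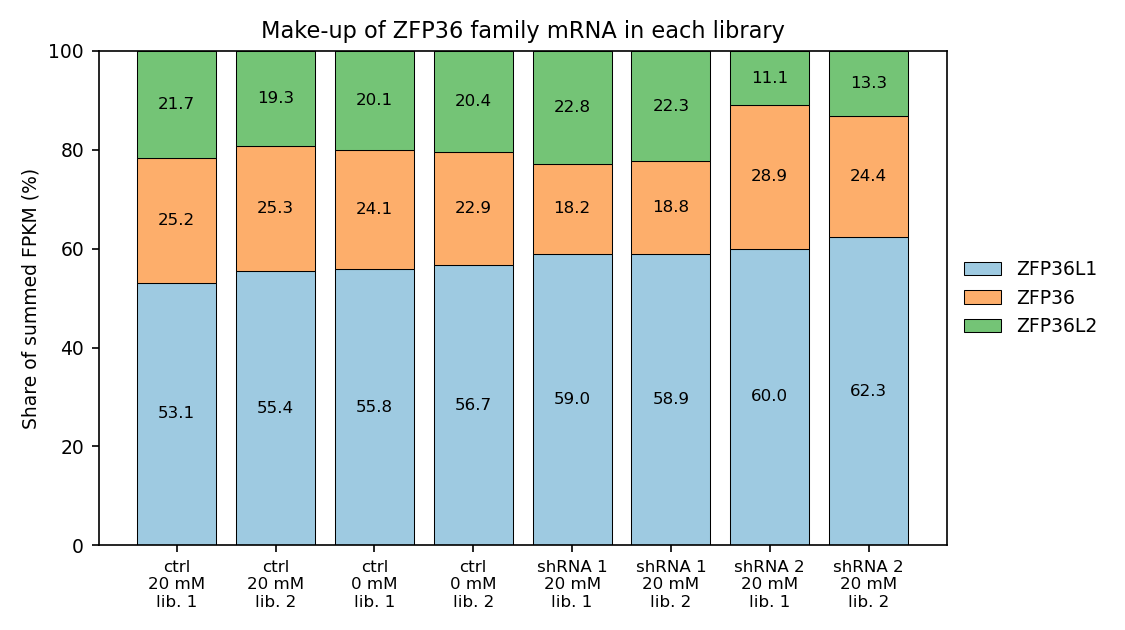
Share (percent) of ZFP36, ZFP36L1 and ZFP36L2 in the summed FPKM of the family, per library and group. ZFP36 takes 18.5% on average with shRNA 1 and ZFP36L2 takes 12.2% with shRNA 2, the lowest group means of each.

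KHSRP (KSRP), a KH-domain protein that brings the exosome and deadenylases to AU-rich mRNAs (chr19:6413348-6424794, minus strand), fell with shRNA 2. It measured 101.3 and 89.3 FPKM in the 20 mM controls, 92.3 and 85.9 FPKM without glucose, 91.1 and 94.9 FPKM with shRNA 1, and 75.4 and 62.96 FPKM with shRNA 2. The shRNA 2 libraries were below all others, and the other 3 groups overlapped. The shRNA 2 mean was 72.6% of control (log2 fold change -0.46, SE 0.12, adjusted p = 0.0384, limma), and the difference from shRNA 1 was -0.43 (SE 0.12, adjusted p = 0.0436, limma). Both calls were fragile: with 1 library fewer the fall with shRNA 2 held only without the first shRNA 2 library (adjusted p = 0.0209), while leaving out any other single library, either of each control group, either shRNA 1 library or the second shRNA 2 library, gave 0.0647 to 0.215 (limma). The difference between shRNAs likewise held only without the first shRNA 2 library (0.0231), and otherwise gave 0.0684 to 0.18 (limma).

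HNRNPD (AUF1), of which several isoforms promote decay (chr4:82352498-82374503, minus strand), was the member whose MAPKAPK2 shRNA libraries all lay below the 20 mM controls. Its level was 54.0 and 54.7 FPKM in the 20 mM controls, 54.8 and 51.8 FPKM without glucose, 45.5 and 45.98 FPKM with shRNA 1, and 41.9 and 30.7 FPKM with shRNA 2. The shRNA libraries were lower than all 4 controls, and the shRNA 2 pair was spread widely. It fell with shRNA 2 to 66.8% of control (log2 fold change -0.59, SE 0.14, adjusted p = 0.0309, limma). With shRNA 1 the mean was 84.2% of control and the change did not pass (-0.24, adjusted p = 0.277, limma), nor did the difference between the shRNAs (-0.34, adjusted p = 0.131). Over the 14 alternatives the shRNA 1 value ran from -0.25 to -0.14 and passed in 2. The difference ran from -0.56 to -0.12 and passed in 2 as well. The mean over both shRNAs, -0.42 (SE 0.12), missed the threshold on log2(FPKM + 1) (adjusted p = 0.0597, limma) and passed it in a limma voom fit to the reads recovered from the FPKM (adjusted p = 0.0134). The size of the fall with shRNA 2 rested on its second library: it was -0.37 without that library (adjusted p = 0.0352, limma) and -0.81 without the first (0.00451). Leaving out any 1 control or shRNA 1 library ended that call (0.0553 to 0.137, limma).

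ELAVL1 (HuR), the stabilising counterpart of the decay factors (chr19:7958579-8005659, minus strand), was lower without glucose by a margin that did not pass. It measured 22.5 and 22.3 FPKM in the 20 mM controls, 18.3 and 17.9 FPKM without glucose, 20.3 and 19.3 FPKM with shRNA 1, and 21.4 and 24.2 FPKM with shRNA 2. The 0 mM libraries were the lowest of the 8. Their mean was 80.8% of the 20 mM mean (log2 fold change -0.29, SE 0.09, unadjusted p = 0.0144 in the limma fit, adjusted p = 0.476). Changes with shRNA 1 (-0.17, adjusted p = 0.229, limma) and shRNA 2 (0.02, 95% interval -0.19 to 0.23) did not pass either.

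HNRNPA0, an MK2 substrate that binds cytokine mRNAs (chr5:137745651-137754376, minus strand), measured 36.9 and 33.02 FPKM in the 20 mM controls, 36.6 and 32.5 FPKM without glucose, 35.9 and 34.8 FPKM with shRNA 1, and 29.7 and 23.1 FPKM with shRNA 2. The shRNA 2 libraries were the lowest of the 8 and the other groups overlapped. The shRNA 2 mean was 75.5% of control, which missed the threshold on log2(FPKM + 1) (log2 fold change -0.40, SE 0.13, adjusted p = 0.0852, limma) and passed it in the limma voom fit to recovered reads (adjusted p = 0.0304). The value was -0.23 without the second shRNA 2 library and -0.57 without the first (adjusted p = 0.0239, limma). The difference from shRNA 1, -0.42, did not pass on log2(FPKM + 1) (adjusted p = 0.0671, limma). It passed in the limma voom fit to recovered reads (-0.43, adjusted p = 0.0214).

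TIA1, a translational repressor that nucleates stress granules (chr2:70209444-70248660, minus strand), rose with shRNA 1. Its level was 11.5 and 12.3 FPKM in the 20 mM controls, 12.9 and 13.8 FPKM without glucose, 15.7 and 18.9 FPKM with shRNA 1, and 10.2 and 12.4 FPKM with shRNA 2. The shRNA 1 libraries were above all others, and the shRNA 2 libraries spanned the 20 mM controls. The shRNA 1 mean was 145% of control (log2 fold change 0.50, SE 0.13, adjusted p = 0.0384, limma), against -0.08 with shRNA 2 (95% interval -0.39 to 0.23). The difference between the shRNAs was -0.58 (SE 0.13, adjusted p = 0.0216, limma). The rise was lost with 1 library fewer in 6 of 8 cases by limma: without the first or second 20 mM control (adjusted p = 0.184 and 0.122), 0 mM control (0.0629 and 0.0635) or shRNA 1 library (0.0684 and 0.195). The difference was lost without the second shRNA 1 library (0.127, limma) and without the first shRNA 2 library (0.0684).

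TIAL1 (TIAR), the close relative of TIA1 (chr10:119571802-119597029, minus strand), did not follow it. It measured 26.3 and 27.2 FPKM in the 20 mM controls, 23.8 and 25.1 FPKM without glucose, 25.7 and 26.1 FPKM with shRNA 1, and 27.2 and 29.03 FPKM with shRNA 2. The 0 mM libraries were the lowest and the shRNA 2 libraries the highest, by small margins. No contrast of TIAL1 passed, and the 95% interval of its log2 fold change was -0.24 to 0.15 with shRNA 1 and -0.12 to 0.26 with shRNA 2 (limma).

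PABPC1, which coats the poly(A) tail and is far more abundant than the rest, measured 570.4 and 593 FPKM in the 20 mM controls, 589 and 684 FPKM without glucose, 484 and 456 FPKM with shRNA 1, and 516 and 668 FPKM with shRNA 2. The shRNA 1 libraries were the lowest of the 8, and the shRNA 2 libraries lay on either side of the 20 mM controls. The shRNA 1 mean was 80.8% of control, a change that did not pass (log2 fold change -0.31, SE 0.15, adjusted p = 0.208, limma) and that was -0.05 with quantile normalization. With shRNA 2 the change was 0.01 (95% interval -0.35 to 0.38).

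Read by comparison, 0 of the 10 members passed for glucose withdrawal by limma, where 0% of the 16239 genes passed. With 2 libraries per group this does not show that the members stayed the same. At an unadjusted p under 0.05 there were 2 members (ZFP36L1 and ELAVL1) and 1421 genes, and the limma voom fit to recovered reads called 0 members and 28 genes, 0.172% of all (0.154% higher, 0.0185% lower). The median log2 fold change of the members was 0.04, beside -0.01 over all genes. The 0 mM and 20 mM libraries did not overlap for 6 members, against 41.3% of all genes.

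For the mean of both MAPKAPK2 shRNAs, 0 of 10 members passed by limma, against 17.3% of all genes (9.56% higher, 7.77% lower), and the fit to recovered reads called 1 member, HNRNPD. At an unadjusted p under 0.05 there were 4 members, ZFP36, ZFP36L2, KHSRP and HNRNPD. The members' median was -0.17, beside -0.00 over all genes. All 4 shRNA libraries lay on 1 side of the 20 mM controls for 1 member, HNRNPD, against 30.9% of all genes.

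By itself, shRNA 1 gave 1 member higher (TIA1) and 1 lower (ZFP36), where 19.8% of all genes passed (9.35% higher, 10.5% lower). With shRNA 2 there were 3 members lower (ZFP36L2, KHSRP and HNRNPD) and 0 higher, where 18.8% of all genes passed (11.1% higher, 7.73% lower). Between the shRNAs 4 members differed, ZFP36 being higher with shRNA 2 and ZFP36L2, KHSRP and TIA1 lower, against 22.2% of all genes (13% higher, 9.13% lower). The balance of calls over all genes moved with the scaling: between the shRNAs it was 2119 higher and 1483 lower, and 1768 and 1822 with quantile normalization, and for shRNA 2 it was 1800 and 1255, and 1541 and 1515 with quantile normalization. Libraries did not overlap for 7 members with shRNA 1 (65.7% of all genes), for 5 with shRNA 2 (57.4%) and for 9 between the shRNAs (60%). Both comparisons with control used the same 2 control libraries. The shRNA 2 libraries differed most from each other, whereas the fit used 1 estimate of the spread for all groups. The p-values that involve shRNA 2 may therefore be too small, and those of glucose withdrawal and of shRNA 1 against control may be too large.

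**Figure D4:**
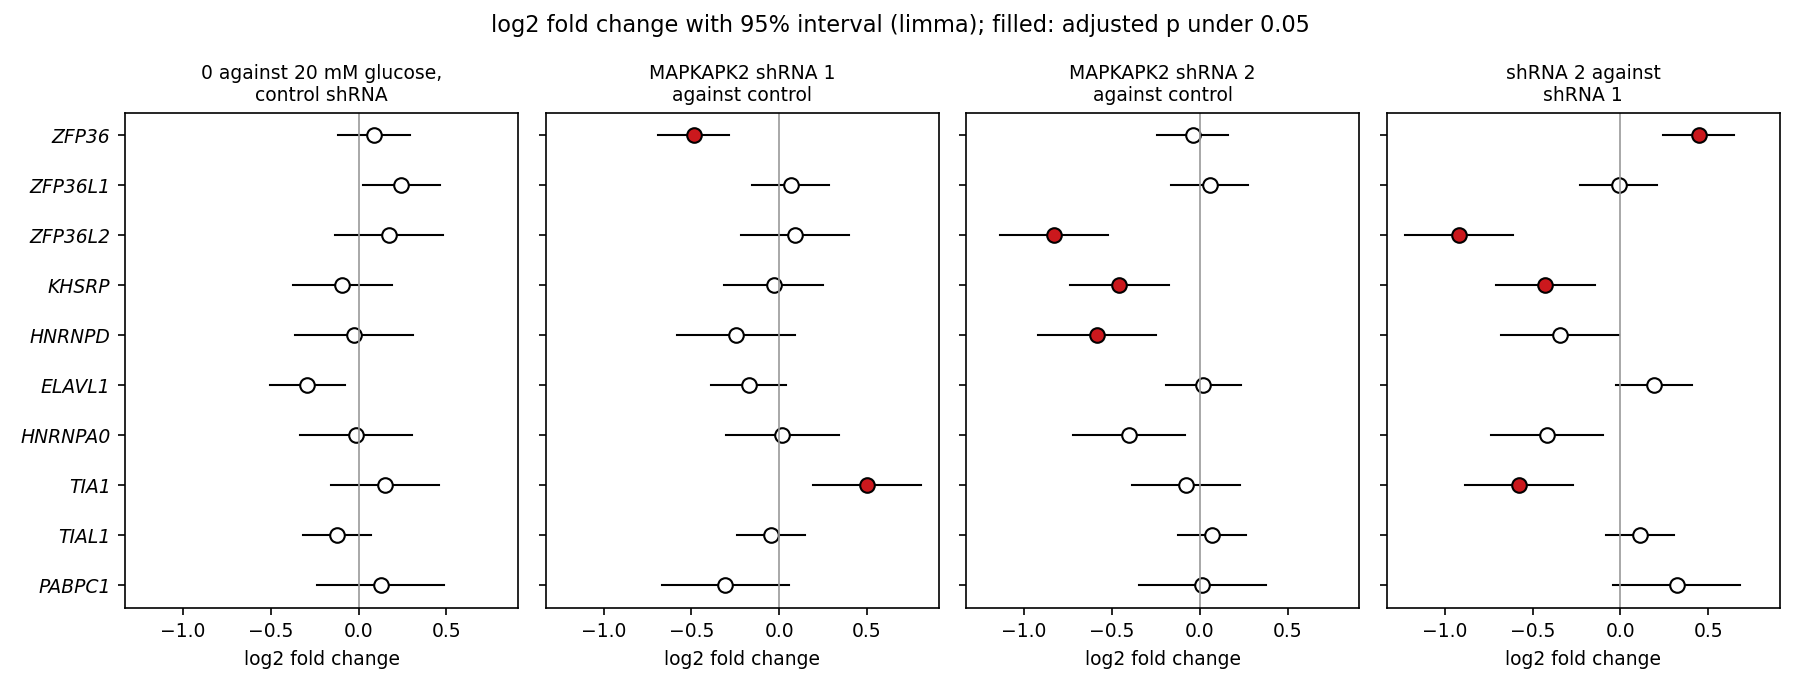
Log2 fold change of each member on log2(FPKM + 1) with its 95% interval (limma) for glucose withdrawal, shRNA 1, shRNA 2 and shRNA 2 against shRNA 1 (1 panel each), with filled marks for those past the adjusted threshold. The filled marks are ZFP36 and TIA1 with shRNA 1, ZFP36L2, KHSRP and HNRNPD with shRNA 2, and ZFP36, ZFP36L2, KHSRP and TIA1 between the shRNAs.

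Summed over the 10 members, the mRNA level was 967 ± 5.16 FPKM (SD, n = 2) in control cells at 20 mM glucose and 1029 ± 66.9 at 0 mM. Under shRNA 1 it was 842 ± 16.3 FPKM, and under shRNA 2 it was 915 ± 96.7 FPKM. PABPC1 made up most of each sum. Without it the sums were 385 ± 11.1, 392 ± 0.648, 372 ± 3.96 and 323 ± 10.8 FPKM in the same order, so the lower total of the other 9 members was that with shRNA 2. The lower sum with shRNA 1 came mostly through PABPC1. The change of PABPC1 with shRNA 1 did not pass (adjusted p = 0.208, limma) and was -0.05 with quantile normalization. The sums themselves were not tested.

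The machinery around the members was described with 9 lists of 204 genes, of which 182 were tested. By limma the knockdown contrast called 15 list genes higher and 24 lower, 21.4% of those tested beside 17.3% of all genes (9.56% higher, 7.77% lower). Of the 16239 genes tested, only 11446 code for proteins. Among the 10363 tested genes with an annotated 3′ UTR and no nonamer, 12.3% were called higher and 9.67% lower. Beside those shares the 182 list genes, pooled, showed no clear excess, and this was not tested. Single lists differed: of 31 tested mRNAs described as targets of AU-rich element binding proteins, 5 rose and 7 fell. Of 23 decapping and 5′ to 3′ decay genes, 0 rose and 2 fell. Of the 27 called genes named below, 8 passed under all 14 alternatives (BTG2, BTG1, PLAU, EGR1, IER3, MYC, IGF2BP2 and EIF2AK3), and each of the other 19 lost its call at least without the first and without the second 20 mM control library. Of 37 other binders of 3′ UTRs, 1 rose and 6 fell (median log2 fold change -0.04). IGF2BP2, which stabilises m6A-marked mRNAs, rose by 0.635 (adjusted p = 0.00197, limma) from 31.9 and 31.9 FPKM in the controls to 32.5 and 32.2 FPKM with shRNA 1 and 75.1 and 79.5 FPKM with shRNA 2. The gain lay in the shRNA 2 libraries, and the difference between shRNAs passed (1.23, adjusted p = 0.000368, limma). RC3H2, a Roquin protein that binds stem-loops, fell by 0.85 (adjusted p = 0.00841, limma) from a mean of 10.95 FPKM to 4.93 with shRNA 1 and 6.42 with shRNA 2. FUBP1, a relative of KHSRP, fell from 42.6 to 21.9 FPKM with shRNA 1 but measured 39.3 with shRNA 2 (knockdown contrast -0.52, adjusted p = 0.0124, limma). PTBP1, a pyrimidine-tract binder, had the same form, with 108 FPKM in control, 62.3 with shRNA 1 and 107 with shRNA 2 (-0.40, adjusted p = 0.0169).

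Among 21 deadenylases and adaptors, 2 rose and 3 fell (median -0.07), where 9.56% of all genes were called higher and 7.77% lower. The largest value was that of BTG2, an adaptor that stimulates the CCR4-NOT deadenylase: it was 8.57 and 9.62 FPKM in the 20 mM controls, 9.57 and 9.62 without glucose, 33.5 and 31.95 with shRNA 1, and 32.2 and 29.25 with shRNA 2. All 4 shRNA libraries stood far above the controls and close to each other (log2 fold change 1.70, adjusted p = 0.000174, limma), and the difference between the shRNAs did not pass (-0.09). Its relative BTG1 went from 5.00 FPKM to 5.84 with shRNA 1 and 15.9 with shRNA 2, a difference between shRNAs of 1.31 that passed (adjusted p = 0.000957, limma). PAN2, a catalytic deadenylase, fell from 6.85 to 4.63 and 4.72 FPKM with shRNA 1 and shRNA 2 (-0.47, adjusted p = 0.00716, limma), and the CCR4-NOT subunit CNOT9 from 19.9 to 11.6 and 15.1 FPKM (-0.55, adjusted p = 0.0148).

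Downstream of deadenylation, 0 of 23 decapping and 5′ to 3′ decay genes rose and 2 fell (median -0.11). These were DCP1A, a decapping coactivator, from 15.4 to 11.4 and 6.41 FPKM (-0.78, adjusted p = 0.00546, limma), and EDC3, an enhancer of decapping, from 11.5 to 7.74 and 9.84 FPKM (-0.36, adjusted p = 0.0268). LSM4 (adjusted p = 0.0517, limma) and DDX6 (0.0581) did not pass. Of 19 exosome and SKI complex genes 2 rose, WDR61 (0.33) and EXOSC6 (0.29), and 1 fell, EXOSC9, a core subunit, from 20.4 to 13.6 and 13.5 FPKM (-0.56, adjusted p = 0.0171, limma). HBS1L did not pass. Beside the counts of both lists, 9.56% of all genes were called higher and 7.77% lower.

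Of 15 partners of poly(A)-binding proteins 0 rose and 3 fell (median 0.03): the scaffold EIF4G1 (-0.32), the PABPC1-binding protein LARP4 (-0.65) and EIF4B (-0.28). EIF4G1 went from 119 FPKM to 82.9 with shRNA 1 and 109 with shRNA 2, so its fall lay mostly with shRNA 1. In the same order LARP4 went from 15.8 to 9.06 and 10.6 FPKM, and EIF4B from 127 to 105 and 103 FPKM. EIF4G2 did not pass (0.35, adjusted p = 0.0637, limma). Of 17 stress granule genes 2 rose and 0 fell (median 0.10), both kinases that phosphorylate eIF2α. EIF2AK3 (PERK) went from 3.03 to 5.88 and 5.72 FPKM with shRNA 1 and shRNA 2 (0.75, adjusted p = 0.00357, limma) and EIF2AK4 (GCN2) from 7.01 to 11.9 and 13.2 FPKM (0.75, adjusted p = 0.0128). The granule scaffolds ATXN2L and G3BP1 did not pass (adjusted p = 0.104 and 0.115, limma). Over all genes 9.56% were called higher and 7.77% lower.

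The 14-3-3 proteins, which hold phosphorylated ZFP36, included 2 of 7 that rose, YWHAB (0.44, adjusted p = 0.0199, limma) and YWHAZ (0.36, 0.045). YWHAB went from 32.9 FPKM to 43.2 with shRNA 1 and 47.2 with shRNA 2. YWHAZ went from 161 to 180 and 239 FPKM, so its rise lay mostly with shRNA 2. The 1 that fell was YWHAG, from 116 to 72.8 and 95.8 FPKM (-0.47, adjusted p = 0.00957, limma). SFN did not pass. In the p38 and MK2 pathway, with MAPKAPK2 itself left out, 1 of 12 genes rose and 1 fell (median 0.12). MAPKAPK3 (MK3), the close relative of MK2, rose from 24.0 FPKM to 29.6 with shRNA 1 and 33.9 with shRNA 2 (0.39, adjusted p = 0.0203, limma), and MAP2K3, a kinase that activates p38, fell from 48.3 to 36.2 and 39.6 FPKM (-0.35, 0.0479). The phosphatase subunits PPP2CB and PPP2R1A did not pass. For both lists, the shares over all genes were 9.56% higher and 7.77% lower.

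Of 40 mRNAs described in general as targets of AU-rich element binding proteins, 31 were tested. The cytokine mRNAs CXCL8, IL6, TNF and CSF2 were among those below the filter. In the knockdown contrast 5 rose and 7 fell (median 0.06), where 9.56% of all genes were called higher and 7.77% lower. PLAU, the urokinase mRNA, went from 6.85 and 6.55 FPKM in the controls to 48.7 and 47.75 with shRNA 1 and 12.7 and 10.1 with shRNA 2 (1.68, adjusted p = 0.00047, limma). The early response mRNAs EGR1 (45.2 FPKM to 15.1 and 36.1, log2 fold change -0.92, adjusted p = 0.00156) and IER3 (338 to 155 and 212, -0.90, 0.00186) fell, and MYC rose from 112 to 175 and 164 FPKM (0.59, 0.00291, limma). With shRNA 1, 2 of the 31 targets rose and 13 fell (median -0.13), where 9.35% of all genes were called higher and 10.5% lower. With shRNA 2, 9 rose and 2 fell (median 0.10), where 11.1% of all genes were higher and 7.73% lower. Tested directly between the shRNAs, 15 targets were higher with shRNA 2 and 2 lower (median 0.41), where 13% of all genes were higher and 9.13% lower (median 0.03). The difference was tested gene by gene and not for the list as a whole. Over the 14 alternatives, added for these counts after seeing the data, 7 to 13 targets fell with shRNA 1 and 5 to 10 rose with shRNA 2. The fall with shRNA 1 was called for 8 and 7 targets without the first and the second 20 mM control library and for 8 and 9 without the first and the second shRNA 1 library, and the rise with shRNA 2 for 5 targets without either 20 mM control library. The 37 other 3′ UTR binders included 12 higher and 1 lower with shRNA 2 than with shRNA 1 (median 0.31). Over the alternatives 4 to 16 were higher, with 4 and 6 without the first and the second shRNA 1 library and 7 with quantile normalization. Over all lists, 10 genes rose and 41 fell with shRNA 1, 28% of those tested beside 19.8% of all genes. With shRNA 2, 27 rose and 8 fell, 19.2% beside 18.8% of all genes. Among tested genes with an annotated 3′ UTR and no nonamer, 11.3% were called higher and 13.5% lower with shRNA 1. With shRNA 2 these shares were 14.5% and 9.45%.

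For glucose withdrawal 0 of the 182 list genes passed by limma, with 14 at an unadjusted p under 0.05. List medians ran from -0.12 for the 14-3-3 proteins to 0.11 for the targets. Of the genes named by the rule, PLAU measured 6.70 FPKM at 20 mM and 11.1 at 0 mM (log2 fold change 0.65, adjusted p = 0.326, limma), and PAN2 measured 6.85 and 9.33 FPKM (0.39, 0.344). Others were FUBP1 (-0.37), BTG1 (0.41), PABPC1L (0.28), EDC3 (-0.24), LSM14A (0.25), EXOSC3 (-0.26), SKIV2L (0.20), PPP2CA (-0.30), HSPB1 (-0.30), EIF4B (0.23), YWHAB (-0.25), YWHAG (-0.20), HNRNPA2B1 (-0.20), UBAP2L (-0.22) and USP10 (-0.18), with adjusted p from 0.419 to 0.749 (limma).

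**Figure D5:**
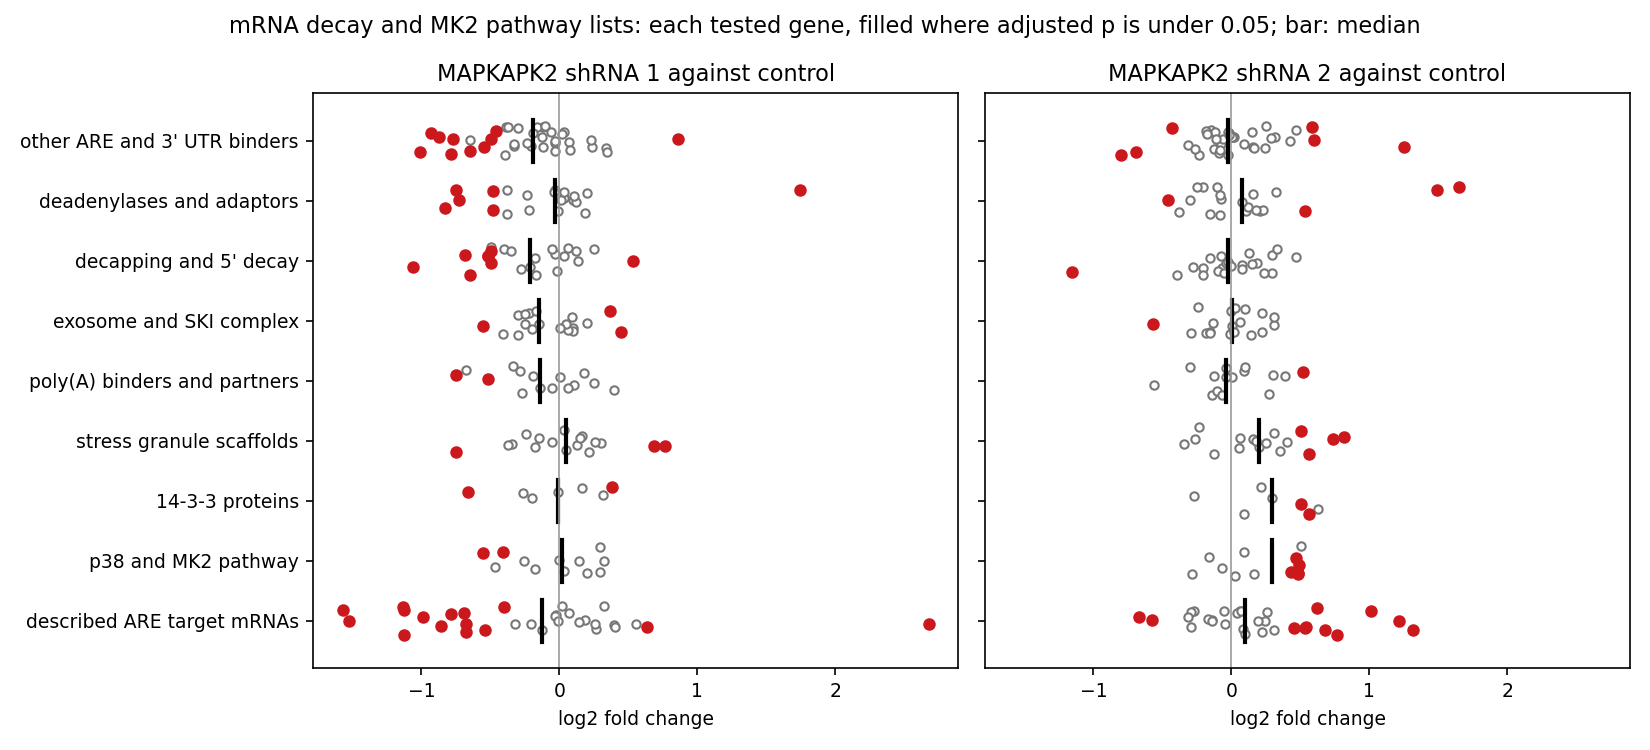
Log2 fold change of each tested gene of the 9 lists with shRNA 1 (left) and shRNA 2 (right) against control, with filled points for those past the adjusted threshold (limma) and a bar at each list's median. Among the described targets, 13 filled points lie below 0 with shRNA 1 and 9 lie above 0 with shRNA 2.

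The nonamer shown above was also counted over all tested genes with an annotated 3′ UTR. There were 10363 genes with no nonamer, 729 with 1 and 209 with 2 or more, and their median 3′ UTR lengths were 972, 2679 and 3578 bases, so the groups differ in length as well as in the motif. With shRNA 1, 13.5%, 14.5% and 18.7% of the genes in these groups were called lower (limma) and 11.3%, 11% and 11% higher. With shRNA 2, 9.45%, 9.88% and 10% were called lower and 14.5%, 15% and 12.4% higher. Median log2 fold changes in the knockdown contrast were -0.01, -0.01 and -0.00, and without glucose -0.02, -0.01 and 0.00.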

How the data were processed

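Total RNA of the HCT116 cells was copied with random hexamers and sequenced, per the labels' protocols, which leave the strand setting unstated. Per the submitters' processing notes the tools included DESeq2 1.20.0, HISAT2 2.0.5 and featureCounts 1.5.0-p3, with no role given for each. The authors deposited FPKM for 58735 genes in 8 libraries. No genome build was given in the sources used here, but all gene IDs, starts, ends and lengths matched GENCODE 29 (GRCh38), whose transcripts gave the 3′ UTRs.

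The members and the 9 lists were chosen with earlier results of these data known, so no list or rule is independent of them. Genes with at least 1 FPKM in at least 2 libraries (16239) were tested on log2(FPKM + 1), a scale that understates changes of low genes, with limma 3.58.1 in R 4.3.3: 4 group means over all 8 libraries, eBayes with an intensity trend, Benjamini-Hochberg adjustment over all genes and a threshold of 0.05. A knockdown call also needed the same sign with both shRNAs. FPKM values were whole multiples of 1 read per gene length in 100% of cases (tolerance 0.001 of a read), so reads were recovered and fitted with limma voom as an alternative. Libraries of a group differed by more than counting error, and most with shRNA 2 (chi-square per gene 26.7, against 5.58 to 10.4 in the other groups). The fit used 1 estimate of the spread for all groups, so it may understate the error of the shRNA 2 values and overstate that of the other groups. The scripts were also run on simulated data with the same spread in all groups, which these libraries do not have.

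Other alternatives were a pseudocount of 0.1, no filter, quantile normalization, protein-coding genes only, a replicate block and leaving out each library. Named genes were all 10 members, MAPKAPK2, and from each list up to 4 genes with the smallest p for the knockdown and 2 for glucose, those past the threshold first. A gene that this rule covers is not reported here. Motifs were sought on the transcript strand of 1 principal transcript per gene.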

Additional observations from a re-analysis of the deposited data

Results flagged for a closer look

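Of the 10 members, 4 differed between the 2 shRNAs against MAPKAPK2 by a test of the difference itself (limma, adjusted over all genes, 2 libraries per shRNA). On log2(FPKM + 1), shRNA 2 minus shRNA 1 was 0.45 for ZFP36 (adjusted p = 0.0124), -0.92 for ZFP36L2 (0.00437), -0.43 for KHSRP (0.0436) and -0.58 for TIA1 (0.0216). In each case both libraries of 1 shRNA lay beyond both of the other, as they did for 9 of the 10 members and 60% of all genes. Across all genes 22.2% passed the test of the difference (limma). MAPKAPK2 itself was lower with shRNA 2, at 5.46% of control against 16.3% with shRNA 1, and its part in these differences was not tested.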

How the results depend on the processing

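A total of 14 alternatives were run for each member and comparison. By limma the number of genes called for glucose was 0 and became 28 in the fit to recovered reads, 6 with no filter and 8 with protein-coding genes only, while 0 members were called in all 14. The knockdown count of 2815 genes became 1808 with no filter and 3689 in the fit to recovered reads. Members called there were 0, and 1 in the fit to recovered reads or with a pseudocount of 0.1, 2 with quantile normalization and 2 with protein-coding genes only. With no filter 1 member was called with shRNA 1 (ZFP36) and 1 with shRNA 2 (ZFP36L2). With each library left out in turn, called genes ranged from 0 to 1 (glucose), 686 to 3437 (knockdown), 942 to 4054 (shRNA 1), 1015 to 3026 (shRNA 2) and 1335 to 3473 (between shRNAs), and called members from 0 to 0, 0 to 3, 0 to 3, 0 to 4 and 1 to 5 in that order. Leaving 1 library in a group assumes that it varies like the other groups.

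Signs turned only for members whose change had not passed. With quantile normalization these were, for glucose, HNRNPD (0.0058) and HNRNPA0 (0.0169), for shRNA 1 KHSRP (0.1558) and TIAL1 (0.0608), for shRNA 2 ZFP36L1 (-0.0540), ELAVL1 (-0.0488) and PABPC1 (-0.0887), and between shRNAs TIAL1 (-0.0495) and PABPC1 (-0.0408). With a library left out, the ranges that crossed 0 were, for glucose, HNRNPD -0.0676 to 0.0108 and HNRNPA0 -0.0982 to 0.0672. For the knockdown it was TIAL1, -0.0121 to 0.0365, and for shRNA 1 ZFP36L2 -0.0018 to 0.1799, KHSRP -0.1225 to 0.0578 and HNRNPA0 -0.0588 to 0.0962. For shRNA 2 they were ZFP36 -0.1136 to 0.0342, ZFP36L1 -0.0149 to 0.1278, ELAVL1 -0.0671 to 0.1055, TIA1 -0.2093 to 0.0531 and PABPC1 -0.1719 to 0.1997, and between shRNAs ZFP36L1 -0.0811 to 0.0615. The cause was not tested.

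Same-numbered libraries deviated together weakly at most (correlations -0.029 to 0.179, the highest between the 0 mM control and shRNA 2). The numbers were therefore not taken to pair them. With a replicate block, 3018 genes and 0 members were called for the knockdown and 4 members with shRNA 2, HNRNPA0 being added (adjusted p = 0.0342, limma). The lists' counts for glucose stayed within 1.5 times in 252 of 252 cases, and 83 of 252 for the knockdown, 96 with shRNA 1, 54 with shRNA 2 and 62 between shRNAs did not; these runs on the lists and their named genes were chosen after seeing the data. The 95% counting interval reached at most 7.29% from a member's value.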

Other observations

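The p38 and MK2 pathway genes, chosen here after their values were seen, included 5 of 12 called higher with shRNA 2 by limma on log2(FPKM + 1), where 11.1% of all genes were called higher: MAPK14 (p38α, log2 fold change 0.43, adjusted p = 0.0237), MAPK13 (p38δ, 0.49, 0.00975), MAPKAPK3 (0.48, 0.0147), the phosphatase DUSP1, which inactivates p38 (0.49, 0.00764), and the phosphatase subunit PPP2CB (0.47, 0.0152). Without the first 20 mM control library 0 of them were called higher, and without the second 1 was. With shRNA 1, 0 were called higher and 2 lower by limma, DUSP1 (-0.55, adjusted p = 0.00529) and MAP2K3 (-0.41, 0.0438), where 9.35% of all genes were called higher and 10.5% lower. The difference between the shRNAs was not tested for the list as a whole. The list's median was 0.30 with shRNA 2 and 0.02 with shRNA 1, beside 0.01 and -0.01 over all genes.

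PLAU, the urokinase mRNA, is among the mRNAs described as targets of AU-rich element binding proteins. It was higher with both shRNAs, with log2 fold changes of 2.68 with shRNA 1 (adjusted p = 0.000259, limma) and 0.68 with shRNA 2 (0.0138). The difference, shRNA 2 minus shRNA 1, was -1.999 (adjusted p = 0.000369, limma), and it was picked after its values were seen.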
